A study of Mus musculus with 2 samples.

Results

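The SoxB1 genes and the transcription factors that pattern the neural tube from dorsal to ventral were described in single-cell RNA sequencing of E9.5 mouse tissue dissected around the cardiac neural crest. The genes were Sox1, Sox2, Sox3, Pax6, Nkx6-1, Irx3, Dbx1, Dbx2 and Olig2. They were chosen by name, and all 9 were found among the 18131 genes of both expression tables. The tissue ran from mid otic placode level back to the end of somite 4. It was taken from C57BL/6 embryos that all carried Wnt1-Cre2 and the ZsGreen1 reporter. The WT library was Prdm6+/+; Wnt1-Cre2; ZsGreen1 and the KO library was Prdm6f/f; Wnt1-Cre2; ZsGreen1. Wnt1-Cre2 makes Cre in the Wnt1 lineage, which includes dorsal neural tube and neural crest cells (NCCs), and cells outside that lineage keep Prdm6. No cell sorting is described, and each genotype was 1 library of pooled embryos with no map from cells to embryos used here. No test of genotype was therefore possible. Every interval below is an exact 95% interval that covers counting error only, and no p-value is given.

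The SoxB1 proteins Sox1, Sox2 and Sox3 are closely related HMG-box factors that keep neural progenitors undifferentiated. Across the progenitor zone, Sonic hedgehog from the notochord and floor plate turns on ventral factors such as Nkx6-1 and Olig2 and limits others such as Pax6, Irx3, Dbx1 and Dbx2. Several of these factors repress one another in pairs and so sharpen the borders between progenitor domains. Olig2 marks the domain that gives rise to somatic motor neurons, in which Nkx6-1 is also present. Irx3 is found dorsal to that border, and Dbx1 and Dbx2 mark intermediate progenitors.

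In the GRCm38 annotation, Sox1 lies at chr8:12395295-12400126 on the plus strand, Sox2 at chr3:34650405-34652461 on the plus strand and Sox3 at chrX:60891366-60893430 on the minus strand. Pax6 is at chr2:105668900-105697364 (plus), Nkx6-1 at chr5:101658139-101664996 (minus) and Irx3 at chr8:91798525-91802067 (minus). Dbx1 is at chr7:49631499-49636849 (minus), Dbx2 at chr15:95623563-95655960 (minus) and Olig2 at chr16:91225457-91228677 (plus). Sox1 overlaps Sox1ot and Sox2 lies within Sox2ot. Both partners are on the same strand as the Sox gene, and neither was among the genes counted. Pax6 overlaps the antisense gene Pax6os1, which had 5 UMIs in WT and 0 in KO. Irx3 overlaps the antisense gene Irx3os, with 59 UMIs in WT and 42 in KO. Whether the counting used strand is not given in the sources used here, so reads from Pax6 and Irx3 cannot be told apart with certainty from those of their partners.

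The sequence before the start was printed for Sox2, Pax6 and Olig2, a SoxB1 gene and 2 patterning genes that differ in the classes described below. The bases are those of the RefSeq promoter window on GRCm38.p6 that lie ahead of every annotated exon, 5′ to 3′. Capitals mark ACAAT, the core bound by Sox factors, TAATTA, a homeodomain core, or CANNTG, the E-box, each searched on both strands.
Sox2, chr3:34649745-34649994, plus strand: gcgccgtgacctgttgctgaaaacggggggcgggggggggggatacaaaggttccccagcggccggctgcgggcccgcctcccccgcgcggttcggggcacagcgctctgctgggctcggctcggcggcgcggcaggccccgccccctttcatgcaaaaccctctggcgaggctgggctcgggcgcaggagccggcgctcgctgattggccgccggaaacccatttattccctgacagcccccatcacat
Pax6, chr2:105668646-105668895, plus strand: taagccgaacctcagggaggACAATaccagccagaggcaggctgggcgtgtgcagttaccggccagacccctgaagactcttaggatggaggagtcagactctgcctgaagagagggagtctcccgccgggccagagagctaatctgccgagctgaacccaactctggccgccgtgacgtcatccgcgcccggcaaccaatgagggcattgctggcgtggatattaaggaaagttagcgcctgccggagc
Olig2, chr16:91225300-91225456, plus strand: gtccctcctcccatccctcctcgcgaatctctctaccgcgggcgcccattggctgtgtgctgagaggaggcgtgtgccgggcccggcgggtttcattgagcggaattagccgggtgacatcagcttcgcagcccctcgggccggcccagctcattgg
In these stretches the only match was ACAAT ahead of Pax6. Whole windows of 300 bases were available for Sox1, Sox2, Nkx6-1, Irx3, Dbx1, Dbx2 and Olig2, and for 2 starts of Pax6. Over all 32851 windows, ACAAT was found in 31.0%, TAATTA in 5.29% and CANNTG in 72.3%. Of the member windows, ACAAT was found in those of Dbx1, Dbx2, Olig2 and 1 of the Pax6 starts, CANNTG in those of Sox2, Dbx2 and the other Pax6 start, and TAATTA in none. The windows of Sox1 (70.7% G and C), Nkx6-1 (67.3%), Sox2 (66.3%) and Olig2 (65.0%) were richer in G and C than the median window (52.7%), with 37, 40, 27 and 25 CpG against a median of 7. A match is a description of letters and not of binding.

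There were 11958 WT cells, at a median depth of 1597 UMIs (unique molecular identifiers, each counting 1 captured transcript), and 9765 KO cells at 1703. The libraries shared 26 barcode sequences. Cells were put into a class when they had a UMI of at least 3 different markers of it and more than of any other class, and none of the 9 genes served as a marker. This left 8074 WT cells (67.5%) and 6912 KO cells (70.8%) ungated, and these held between 55.1% and 74.6% of each gene's UMIs. The neural progenitor-like class had 581 WT cells (4.86%) and 525 KO cells (5.38%), with 422 and 331 of them at exactly 3 markers. Olig3, a dorsal progenitor factor, was the only one of its 10 leading genes that was not a gate marker. The floor plate-like class (118 and 102 cells) had Shh and Foxa2 among its leading genes, the neuron-like class (128 and 119 cells) was led by Nhlh1 and Neurod1, and the migrating NCC-like class (403 and 336 cells) by Sox10 and Tfap2b. The samples are labelled as cardiac NCCs, but migrating NCC-like cells were 3.37% of WT and 3.44% of KO cells and heart, vessel and blood classes were also present. The surface ectoderm-like (15 and 24), otic and placodal-like (38 and 49) and endoderm-like (49 and 28) classes were too small to describe. Levels are given as CPM, the UMIs of a gene per 1000000 UMIs of the cells described. Cardiac muscle-, endothelial- and erythroid-like cells, in which most of these genes are not expected, gave the background level.

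Sox2 was highest in floor plate-like cells of both libraries. Its level there was 537 CPM (116 UMIs, 443 to 644) in WT and 612 CPM (135 UMIs, 513 to 725) in KO, which was 8.95-fold and 9.68-fold the background of 60.0 and 63.3 CPM. Among the classes large enough to describe, neural progenitor-like cells came next with 318 CPM (351 UMIs) in WT and 277 CPM (308 UMIs) in KO. These levels were below those of floor plate-like cells beyond counting error in each library. Migrating NCC-like cells had 205 and 162 CPM and neuron-like cells 193 and 160 CPM, and these neighbours could not be separated. All of these stood above background, by 3.41-fold in WT and 2.56-fold in KO for migrating NCC-like cells. The small endoderm-like class, left out of this order, also held Sox2. Its level was 189 CPM (23 UMIs, 120 to 284) in WT and 318 CPM (28 UMIs, 211 to 460) in KO. Sox2 thus had a broad range of classes above background, which included floor plate-, neural crest- and endoderm-like cells.

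Sox1 and Sox3 had their highest values in neural progenitor-like cells. Sox1 was at 190 CPM (210 UMIs, 165 to 218) in WT and 147 CPM (163 UMIs, 125 to 171) in KO, 5.50-fold and 5.00-fold background. Floor plate-like cells followed with 162 and 104 CPM of Sox1, which did not differ from the neural progenitor-like level beyond counting error in either library. In migrating NCC-like cells, Sox1 was at 29.1 and 38.1 CPM against a background of 34.6 and 29.3 CPM, so it was read as background there. Sox3 was at 201 CPM (222 UMIs, 175 to 229) in WT and 148 CPM (164 UMIs, 126 to 172) in KO neural progenitor-like cells, 4.83-fold and 4.16-fold background. Floor plate-like cells had 185 and 109 CPM of Sox3, which again did not differ from the neural progenitor-like level beyond counting error. The log2 of neural progenitor-like over floor plate-like cells was 0.12 (-0.37 to 0.64) in WT and 0.44 (-0.18 to 1.12) in KO. In migrating NCC-like cells it was at 61.3 CPM in WT, 1.47-fold background, and at 38.1 CPM in KO, 1.07-fold background.

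The make-up of the SoxB1 UMIs differed from class to class. Sox2 gave 44.8% (41.3 to 48.4) of the SoxB1 UMIs of neural progenitor-like cells in WT and 48.5% (44.6 to 52.5) in KO. In migrating NCC-like cells its share was 69.4% (63.6 to 74.7) and 68.0% (61.5 to 74.0), above the neural progenitor-like share in both libraries. In floor plate-like cells it was 60.7% (53.4 to 67.7) and 74.2% (67.2 to 80.4). These shares compare classes and do not rank the genes, since capture can differ between genes.

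Pax6, a paired-box factor, was highest in neural progenitor-like cells. It was at 122 CPM (135 UMIs, 102 to 145) in WT and 140 CPM (156 UMIs, 119 to 164) in KO, 4.56-fold and 4.78-fold background, and above the neuron-like cells that came next (57.1 and 45.8 CPM). In floor plate-like cells Pax6 had 5 UMIs in each library (23.1 and 22.7 CPM), at the background of 26.8 and 29.3 CPM. Among classes of 50 or more cells, Irx3, an Iroquois factor, also had its highest value in neural progenitor-like cells, at 138 CPM (152 UMIs, 117 to 161) in WT and 144 CPM (160 UMIs, 123 to 168) in KO. In WT this was not above the neuron-like level of 92.2 CPM beyond counting error (log2 of 0.58, -0.09 to 1.31). Irx3 was spread more widely than Pax6: pharyngeal and splanchnic mesoderm-like cells had 76.2 and 104 CPM and migrating NCC-like cells 84.1 and 72.9 CPM, against a background of 48.0 and 52.9 CPM. Floor plate-like cells had 46.3 and 59.0 CPM of Irx3, near that background. The Irx3 background was itself uneven. Cardiac muscle-like cells had 49.8 CPM in WT and 67.3 in KO, endothelial-like cells 54.2 and 47.2, and erythroid-like cells 37.7 and 24.3.

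Nkx6-1, a homeodomain factor of ventral progenitors that persists in some motor neurons, had a different order. It was highest in neuron-like cells, at 377 CPM (86 UMIs, 302 to 466) in WT and 493 CPM (129 UMIs, 411 to 585) in KO, 18.9-fold and 22.4-fold background. Floor plate-like cells had 194 CPM (42 UMIs) and 376 CPM (83 UMIs) of Nkx6-1, and neural progenitor-like cells 111 CPM (123 UMIs) and 113 CPM (125 UMIs). The step from neuron-like to floor plate-like cells was beyond counting error in WT and not in KO. Pharyngeal and splanchnic mesoderm-like cells also held Nkx6-1 above its background in both libraries, at 43.2 CPM (34 UMIs) in WT and 56.1 CPM (28 UMIs) in KO, 2.16-fold and 2.55-fold background. Olig2, a basic helix-loop-helix factor, had 27 UMIs (24.4 CPM, 16.1 to 35.5) in WT and 21 UMIs (18.9 CPM, 11.7 to 28.9) in KO neural progenitor-like cells, 4.00-fold and 4.12-fold background. In neuron-like cells Olig2 had 11 UMIs (48.3 CPM) in WT and 1 UMI (3.82 CPM) in KO. Floor plate-like cells held 2 Olig2 UMIs in WT and 0 in KO, where the exact upper bound was 16.7 CPM.

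Dbx1 and Dbx2, homeodomain factors of intermediate progenitors, were sparse. Dbx1 had 19 UMIs in the neural progenitor-like cells of each library, at 17.2 CPM (10.4 to 26.8) in WT and 17.1 CPM (10.3 to 26.7) in KO, 1.87-fold and 3.73-fold background. The background of Dbx1 itself was 9.17 CPM in WT and 4.59 CPM in KO, and erythroid-like cells held 15 of its UMIs in WT and 1 in KO. Dbx2 had 12 UMIs (10.9 CPM, 5.61 to 19.0) in WT and 8 UMIs (7.20 CPM, 3.11 to 14.2) in KO, 5.77-fold and 5.89-fold a background of 1.88 and 1.22 CPM. At this depth no order among the other classes could be read for either gene.

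**Figure D1:**
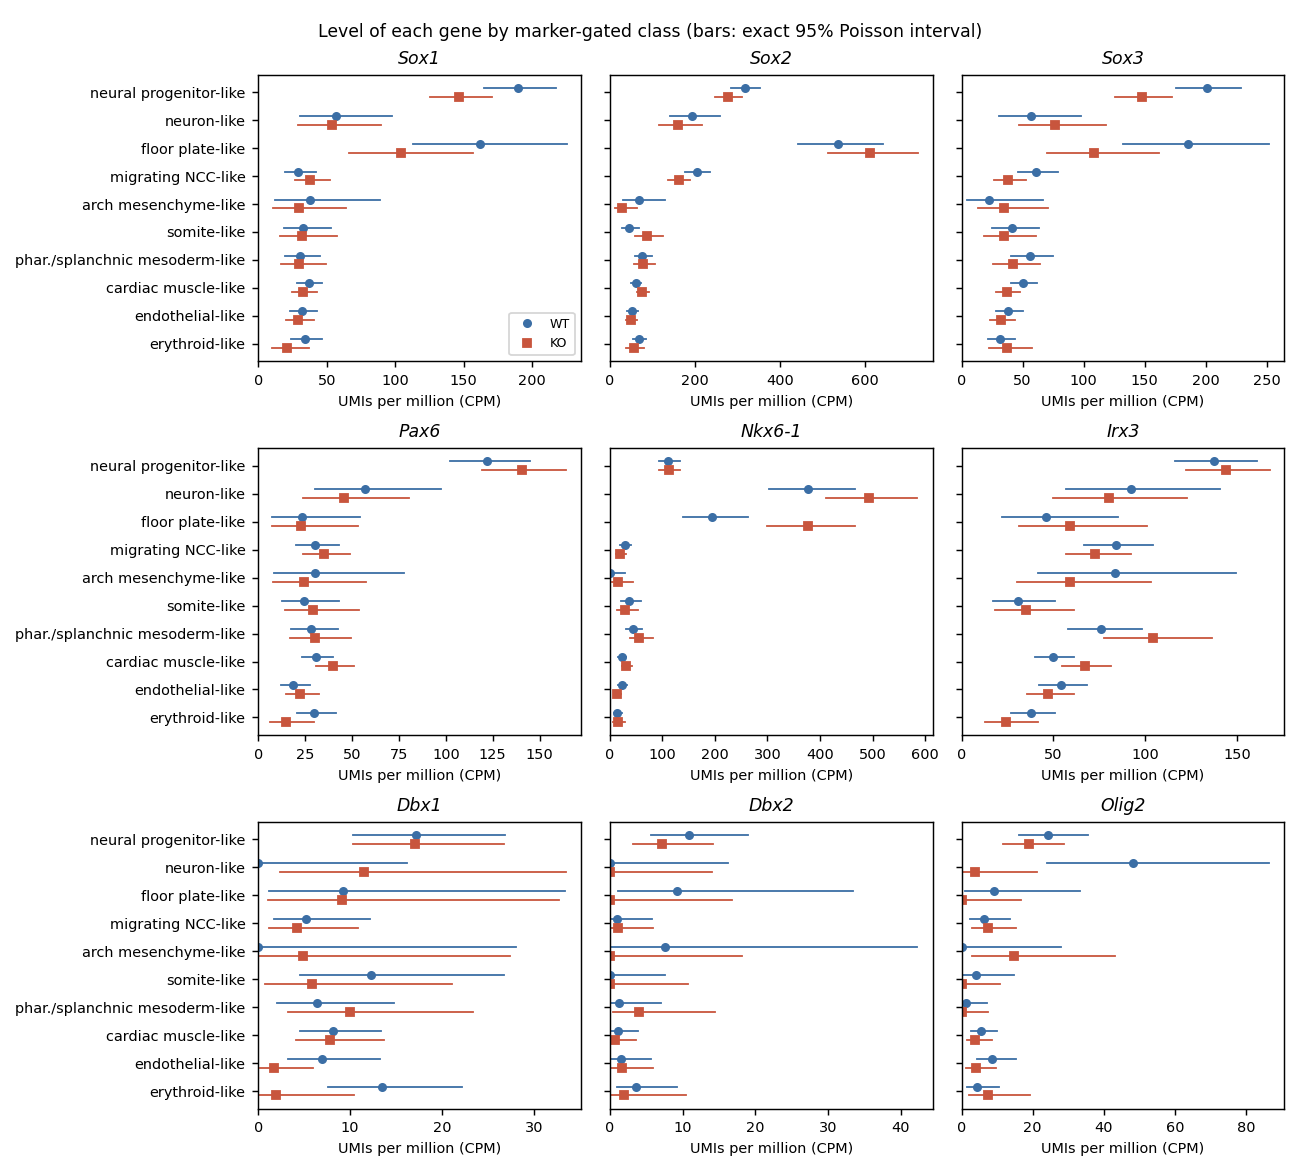
Level of each of the 9 genes in UMIs per 1000000 (x axes, which differ between panels) in the 10 classes with 50 or more cells in each library, for WT (circles) and KO (squares), with exact 95% Poisson intervals as bars. Sox2 has its highest value in floor plate-like cells (537 and 612 CPM), Nkx6-1 in neuron-like cells (377 and 493 CPM), and Sox1, Sox3, Pax6 and Irx3 in neural progenitor-like cells. Not every highest value is above the next one beyond counting error.

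At least 1 of the 9 genes was detected in 74.2% of WT and 73.7% of KO neural progenitor-like cells. The share in the background classes ran from 34.6% to 50.4%. With each cell thinned to 1000 UMIs (1361 shallower WT cells and 125 KO cells of the libraries had no thinned value), the shares were 57.6% and 55.0% against 17.3% to 27.3%. All 3 SoxB1 genes were detected together in 40 WT and 24 KO neural progenitor-like cells, and in at most 2 cells of any background class.

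KO was then compared with WT to ask whether loss of Prdm6 from the Wnt1 lineage went with a different level of these genes. Over all cells, Sox3 had 1751 UMIs (84.3 CPM) in WT and 1315 (69.4 CPM) in KO, a log2 of KO over WT of -0.28 (-0.38 to -0.18). Sox1 had 1339 UMIs (64.4 CPM) and 1073 (56.7 CPM), a log2 of -0.19 (-0.30 to -0.07). Olig2 had 233 UMIs (11.2 CPM) and 153 (8.08 CPM), a log2 of -0.47 (-0.78 to -0.17). Sox3, Sox1 and Olig2 were thus lower in the KO library beyond counting error. In such sums, fewer cells of a type and less RNA per cell cannot be told apart.

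Nkx6-1 was higher over all KO cells, with 994 UMIs (47.8 CPM) in WT and 1054 (55.7 CPM) in KO, a log2 of 0.22 (0.09 to 0.35). Pax6 had 998 UMIs (48.0 CPM) and 995 (52.5 CPM), a log2 of 0.13 whose lower bound was just above 0. Sox2 had 2929 UMIs (141 CPM) and 2786 (147 CPM), a log2 of 0.06 (-0.01 to 0.14). Irx3 had 1926 UMIs (92.7 CPM) and 1813 (95.7 CPM), a log2 of 0.05 (-0.05 to 0.14). Dbx1 had 222 and 191 UMIs and Dbx2 69 and 59 UMIs, with log2 of -0.08 (-0.37 to 0.20) and -0.09 (-0.62 to 0.43). All of these differences were small: none of the 8 genes with 200 or more UMIs over both libraries was 1.5-fold apart in either direction, where 2.02% of 10513 genes were lower and 0.371% were higher by that much. The intervals of 5 of the 9 genes lay apart from 0, 3 lower and 2 higher, where 32.1% of 16891 genes had such an interval (20.7% lower and 11.4% higher). With the trimmed mean of log ratios and with the median of ratios, Sox2 at 0.12 and 0.13 and Irx3 at 0.11 in both also lay above 0, which made 3 lower and 4 higher, where 14.5% and 14.0% of genes were lower and 16.2% and 16.9% higher. The median log2 of the 8 was -0.02, beside -0.06 over all 10513 genes.

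Within neural progenitor-like cells Sox3 and Sox1 had lower values in KO, and their intervals lay apart from 0, as did those of 10.7% of 11556 genes (5.82% lower and 4.92% higher). Sox3 went from 201 to 148 CPM, a log2 of -0.44 (-0.74 to -0.15), and was detected in 29.4% and 23.6% of cells, or 16.3% and 10.7% after thinning. Sox1 went from 190 to 147 CPM, a log2 of -0.37 (-0.68 to -0.07), with 25.0% and 24.0% of cells, or 13.0% and 11.1% after thinning. With the gate on thinned cells the values were -0.44 (-0.99 to 0.10) for Sox3 and -0.38 (-0.94 to 0.17) for Sox1, and with 4 or more markers that of Sox1 was -0.33 (-0.76 to 0.11), so these intervals took in 0. Sox2 had a log2 of -0.20 (-0.42 to 0.03). For Pax6 the log2 was 0.20 (-0.14 to 0.54), for Nkx6-1 0.02 (-0.36 to 0.39) and for Irx3 0.07 (-0.26 to 0.40). Olig2, Dbx1 and Dbx2 had too few UMIs for a narrow interval, for example -1.27 to 0.51 around -0.37 for Olig2. Again none of the 6 genes with 50 or more UMIs was 1.5-fold apart, where 5.15% of 6500 genes were lower and 2.71% were higher, and the median log2 was -0.09 beside -0.03 over all 6500.

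Sox3 is X-linked, and the X-inactivation transcript Xist also differed between the libraries, from 159 CPM in WT to 334 CPM in KO over all cells and from 130 to 349 CPM in neural progenitor-like cells. The part of the sex make-up of the pooled embryos in the Sox3 difference was not tested. Over 361 X-linked genes with 200 or more UMIs the median log2 was -0.01, and 10.2% of them were at or below Sox3, beside 14.4% of 10068 autosomal genes. The background level of Sox3 was also lower in KO (35.5 CPM) than in WT (41.6 CPM). Prdm6 itself had 104 UMIs in WT and 59 in KO over all cells, and 2 and 3 in neural progenitor-like cells, too few to check its loss there. Reads outside the deleted part would be counted for Prdm6 as well.

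In the other classes with 50 or more cells, 7 of 65 intervals of the 9 genes lay apart from 0, 4 lower and 3 higher, with no adjustment for their number. Over all genes 8.9% of 91481 gene and class pairs did so (4.72% lower and 4.18% higher), so the count for these genes was near the background. Nkx6-1 in floor plate-like cells was 194 CPM in WT and 376 CPM in KO, a log2 of 0.95 (0.40 to 1.53), detected in 27.1% and 52.9% of cells, or 17.1% and 29.4% after thinning. Of those cells, 55 of 118 in WT and 27 of 102 in KO stood at exactly 3 markers, and the median depth was 1646 and 2042 UMIs. With 4 or more markers the log2 was 0.97 (0.30 to 1.68). Sox3 in the same cells had 40 and 24 UMIs, a log2 of -0.77 (-1.56 to 0.00). Whether floor plate-like cells belong to the Wnt1 lineage was not determined, and cells outside that lineage keep Prdm6.

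Olig2 in neuron-like cells, with 11 and 1 UMIs, had a log2 of -3.66 (-9.09 to -0.88), with 8 WT cells and 1 KO cell holding a UMI. Sox3 in migrating NCC-like cells went from 59 UMIs (61.3 CPM) to 36 (38.1 CPM), a log2 of -0.69 (-1.33 to -0.06). It was -1.25 without the 5% of cells with most UMIs and -0.33 with the gate on thinned cells. Sox2 in the same cells went from 197 UMIs (205 CPM) to 153 (162 CPM), a log2 of -0.34 (-0.65 to -0.03), an interval that took in 0 with every other marker minimum tried. Median depths of these cells were 2333 UMIs in WT and 2856 in KO. In somite-like cells Sox2 had 22 UMIs (45.1 CPM) in WT and 30 (87.5 CPM) in KO, a log2 of 0.96 (0.12 to 1.82), at levels near the background of 60.0 and 63.3 CPM, and 0.12 (-1.65 to 1.77) with 4 or more markers. The other two lay in background classes, for Irx3 in cardiac muscle-like cells (92 and 103 UMIs, log2 of 0.44) and for Dbx1 in erythroid-like cells (15 and 1 UMIs, log2 of -2.85). In ungated cells Sox1 (-0.22), Sox3 (-0.30) and Olig2 (-0.50) were lower in KO beyond counting error, where 27.6% of 15804 genes had an interval apart from 0 (18.4% lower and 9.21% higher).

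**Figure D2:**
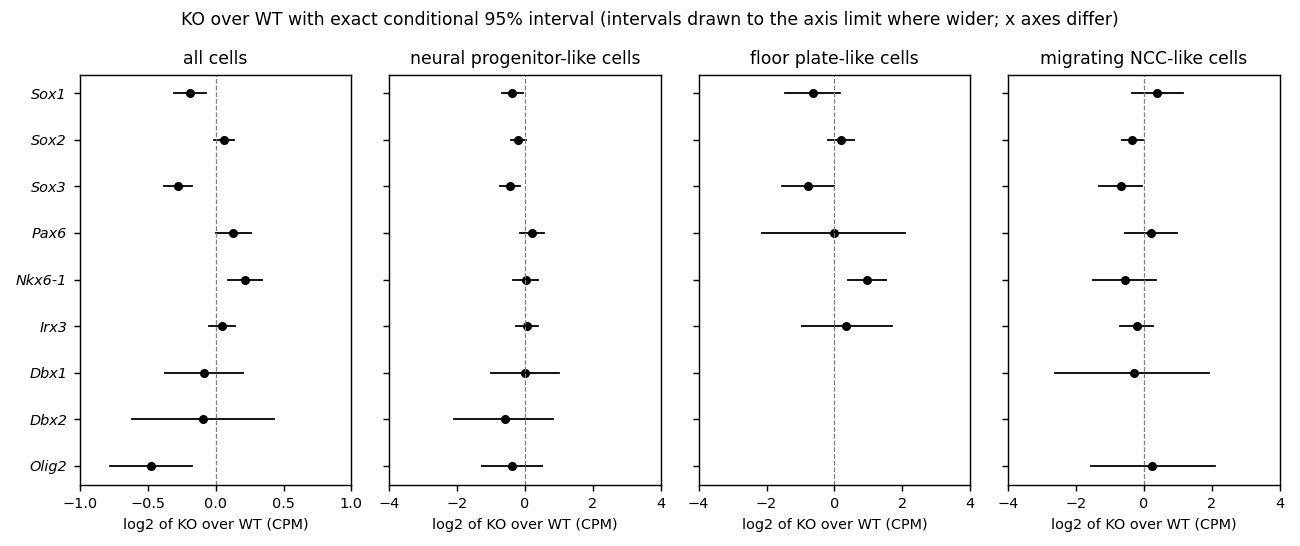
Log2 of KO over WT for the 9 genes (rows) in all cells and in neural progenitor-like, floor plate-like and migrating NCC-like cells, with exact conditional 95% intervals as bars and a dashed line at 0 (the x axis of the first panel is narrower, and genes with 3 or fewer UMIs in each library are left out). Sox3 lies below 0 in all cells (-0.28), neural progenitor-like (-0.44) and migrating NCC-like cells (-0.69), and Nkx6-1 lies furthest above 0 in floor plate-like cells (0.95).

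Neural progenitor-like cells were next divided by markers that are not among the 9 genes. Cells with a UMI of Pax3, Pax7, Msx3, Olig3, Zic1 or Zic4 and none of Nkx2-2, Nkx2-9, Nkx6-2, Foxa2, Gli1 or Ptch1 were called dorsal, and the reverse ventral. There were 103 dorsal and 211 ventral cells in WT and 97 and 200 in KO. A further 113 and 119 cells had both kinds of marker and 154 and 109 had neither. The ventral calls rested largely on Ptch1, the Sonic hedgehog receptor: it was the sole ventral marker with a UMI in 145 of 211 WT and 144 of 200 KO ventral cells. No dorsal marker stood alone in more than 24 dorsal cells of a library. The division was therefore also made without Ptch1, which left 66 ventral and 194 dorsal cells in WT and 56 and 189 in KO.

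Nkx6-1 was the gene most clearly set apart by this division. In WT it had 11 UMIs (54.3 CPM) in dorsal and 88 (218 CPM) in ventral cells, 4.01-fold higher ventrally with a log2 of 2.00 (1.10 to 3.06). In KO it had 9 UMIs (45.4 CPM) and 74 (166 CPM), 3.65-fold higher with a log2 of 1.87 (0.87 to 3.05). Without Ptch1 the log2 was 3.09 (2.28 to 3.97) in WT and 2.14 (1.36 to 2.93) in KO. With the gate on thinned cells the WT log2 was 1.06. Nkx6-1 was thus higher on the side of its known ventral domain in both libraries. Olig2 had 3 dorsal and 16 ventral UMIs in WT and 2 and 8 in KO, and Dbx1 1 and 9 in WT and 1 and 8 in KO. Dbx2 had 0 dorsal UMIs in either library and 7 and 4 ventral UMIs. For Olig2, Dbx1 and Dbx2 the intervals of ventral over dorsal took in 0. Without Ptch1, Olig2 in WT had 4 dorsal and 8 ventral UMIs (9.74 and 66.5 CPM), a log2 of 2.77 (0.87 to 4.95). In KO it had 8 dorsal and 4 ventral UMIs (19.1 and 32.2 CPM), a smaller step.

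Sox3 was higher in ventral than in dorsal cells of WT, at 243 CPM (98 UMIs) against 118 CPM (24 UMIs), a log2 of 1.03 (0.38 to 1.74). In KO the levels were 168 CPM (75 UMIs) and 136 CPM (27 UMIs), a log2 of 0.30 (-0.35 to 0.99). Without Ptch1 the Sox3 values were 1.15 (0.55 to 1.74) in WT and 0.26 (-0.53 to 1.00) in KO. Whether the libraries differ in this step was not tested, and the intervals overlap. Sox1 had levels of 222 CPM in dorsal and 193 CPM in ventral WT cells, a log2 of -0.20 (-0.75 to 0.36), and of 207 and 123 CPM in KO, a log2 of -0.75 (-1.36 to -0.13) that was 0.042 with the gate on thinned cells and -0.44 (-1.26 to 0.31) without Ptch1. Sox2 had 365 CPM dorsally and 314 CPM ventrally in WT and 252 and 282 CPM in KO, with intervals that took in 0. Pax6 had 118 CPM dorsally and 116 CPM ventrally in WT and 121 and 170 CPM in KO. Irx3 had 104 and 121 CPM in WT and 151 and 132 CPM in KO. Neither Pax6 nor Irx3 was set apart by the division beyond counting error, though without Ptch1 Irx3 in KO was lower in ventral cells, at a log2 of -1.49 (-2.86 to -0.36).

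Compared between libraries, Sox1 and Sox3 were lower in the ventral cells of KO. Sox1 had a log2 of KO over WT of -0.65 (-1.17 to -0.13) and Sox3 of -0.53 (-0.98 to -0.08) in ventral cells, while in dorsal cells the values were -0.10 (-0.75 to 0.54) and 0.20 (-0.65 to 1.06). With the division made without Ptch1, ventral Sox3 was at -1.01 (-1.85 to -0.22), while the interval of ventral Sox1 took in 0, at -0.34 (-1.32 to 0.63). Sox3 was at -0.61 in cells with both kinds of marker and -0.63 in cells with neither, and Sox1 at -0.18 and -0.77, with intervals that took in 0. Sox2 had a log2 of -0.53 (-1.08 to 0.00) in dorsal and -0.16 (-0.52 to 0.21) in ventral cells, with intervals that took in 0. Without Ptch1 the Sox2 values were -0.39 (-0.74 to -0.03) in dorsal and -0.05 (-0.69 to 0.59) in ventral cells. The difference between divisions was not tested. The Wnt1 lineage includes dorsal neural tube, and cells outside it keep Prdm6. Which of the divided cells belong to that lineage was not determined. Over the divisions, 4 of 31 intervals of the 9 genes lay apart from 0, 2 lower and 2 higher, beside 6.39% of 34523 gene and division pairs (3.45% lower and 2.94% higher). Pax6 had 47 and 76 UMIs in ventral cells, a log2 of 0.55 (0.01 to 1.11) that was 0.19 (-1.08 to 1.49) without Ptch1. Among cells with both kinds of marker, Nkx6-1 had 11 UMIs (43.5 CPM) in WT and 29 (103 CPM) in KO, a log2 of 1.24 (0.20 to 2.39). In ventral cells Nkx6-1 had a log2 of -0.39 (-0.86 to 0.07).

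**Figure D3:**
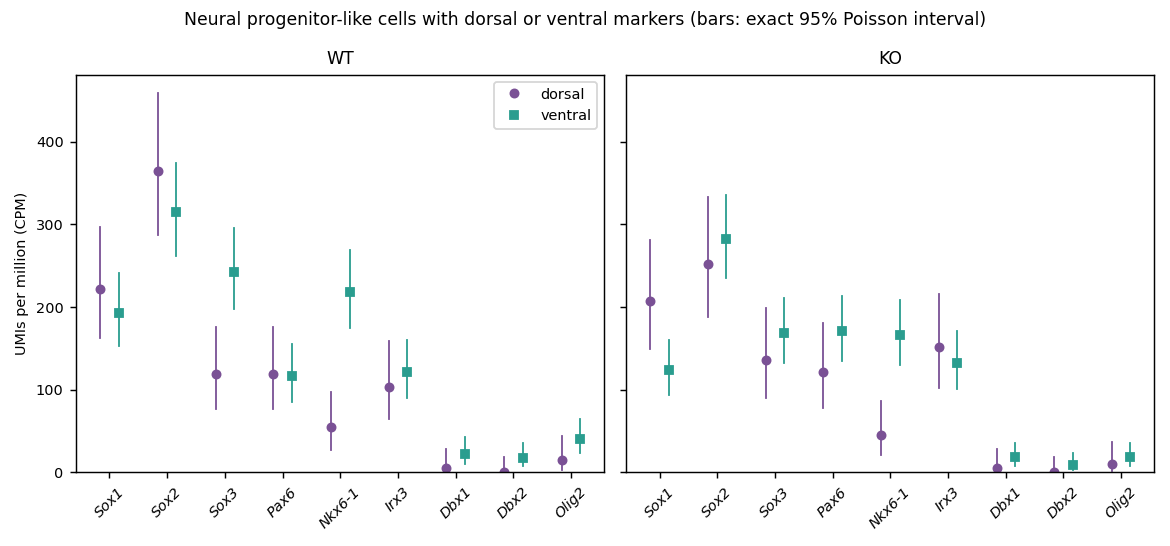
Level of the 9 genes in UMIs per 1000000 (y axis) in neural progenitor-like cells with dorsal markers (circles) or ventral markers (squares), for WT (left) and KO (right), with exact 95% Poisson intervals. Nkx6-1 is 4.01-fold and 3.65-fold higher in ventral cells, and Sox3 is higher in ventral cells of WT (243 against 118 CPM).

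Co-detection within single neural progenitor-like cells was described for all 36 pairs. Olig2 was detected in 11 of 83 WT cells with a Nkx6-1 UMI, or 13.3% (6.81 to 22.5), and in 2.81% (1.55 to 4.67) of cells without. In KO it was detected in 7.06% of 85 cells with Nkx6-1 and in 2.95% of cells without, and these intervals overlap. The median depths of WT cells with and without Nkx6-1 were 1822 and 1710 UMIs. After thinning, the WT shares were 13.0% and 1.81% and the KO shares 2.08% and 1.68%. Of the 36 pairs, this was the only one with separate intervals after thinning, and in WT only. Olig2 was detected in 1.56% of WT cells with an Irx3 UMI and in 5.08% of cells without, and in KO in 1.54% and 4.30%. Olig2 was thus detected in a smaller share of cells with Irx3, with intervals that overlap.

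Among the SoxB1 genes, Pax6 and Irx3, each pair was read in both orders. In 14 of these 20 ordered pairs, the second gene was detected in a larger share of cells with the first gene, with separate intervals in both libraries, and after thinning this held in 0 of 20 in either library. Of the 14, 3 are given as examples. Sox2 was detected in 53.8% (45.3 to 62.1) of WT cells with Sox1 and in 33.3% (28.8 to 37.9) of cells without, and in KO in 51.6% and 33.1%. Pax6 was detected in 32.2% (25.2 to 39.7) of WT cells with Sox3 and in 14.1% (10.9 to 17.9) of cells without, and in KO in 37.1% and 18.7%. Pax6 was also detected in 28.9% of WT cells with Irx3 and in 16.8% of cells without, and in KO in 35.4% and 19.0%. Cells with a Sox1 UMI were deeper than cells without, at a median of 2062 against 1623 UMIs in WT and 2453 against 1846 in KO. After thinning, the gap for Sox2 by Sox1 was 14.6 percentage points in WT and 5.48 in KO. That for Pax6 by Sox3 was 9.15 and 1.53, and that for Pax6 by Irx3 was 11.7 and 2.77.

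**Figure D4:**
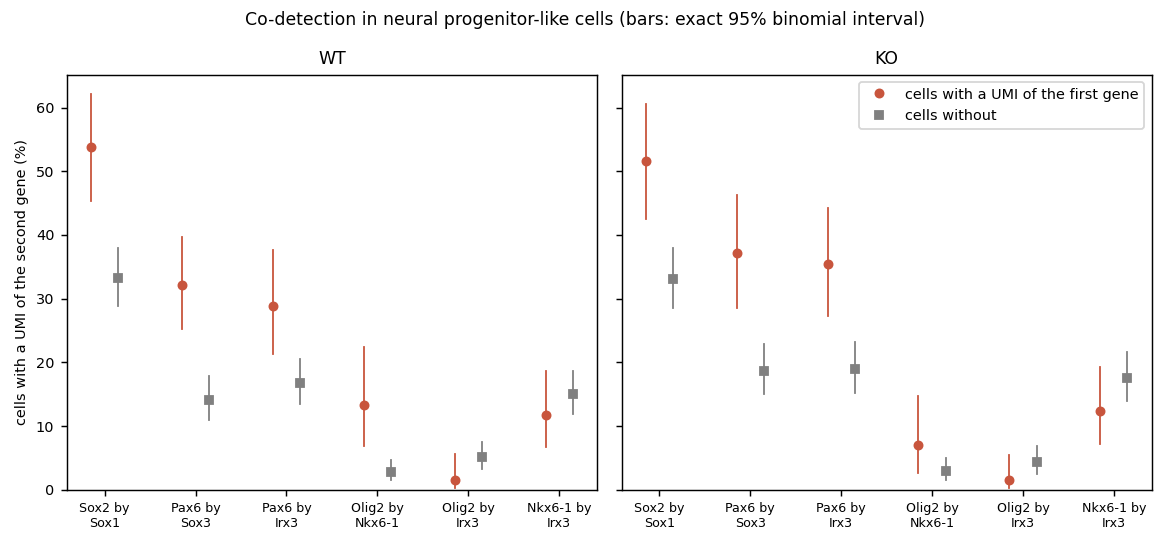
Percent of neural progenitor-like cells with a UMI of the second gene (y axis) among cells with a UMI of the first gene (circles) and cells without (squares), for 6 pairs in WT (left) and KO (right), before thinning, with exact 95% binomial intervals. Olig2 was found in 13.3% of WT cells with Nkx6-1 and in 2.81% of cells without.

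Likeness of profile was measured as Pearson's r of log2(CPM + 10) over 20 profiles, 10 classes in each of the libraries, which share the libraries' depth and background. Among the 9 genes the closest pair was Sox1 and Sox3 (r of 0.92), followed by Sox2 and Sox3 (0.84) and Sox1 and Sox2 (0.83). Pax6 was closest to Irx3 (0.77). Outside the 9 genes, out of 10394 genes compared, Foxb1, a forkhead factor, and Pou3f4, a POU factor, were the most like both Sox1 (0.93 and 0.92) and Sox3 (0.90 and 0.89). Rmst and Olfml3 were most like Sox2 (0.91 each). The dorsal progenitor factor Olig3 (0.85) and Sp8 (0.82) were most like Pax6, and Nrxn2 (0.96) and Syt11 (0.92) most like Nkx6-1. For Irx3 the genes were Bex2 (0.89) and Sfrp1 (0.79) and for Olig2 Zbtb16 (0.86) and Glod4 (0.76). For Dbx1 they were Arl2 (0.74) and Xpo1 (0.74) and for Dbx2 Impdh2 (0.74) and Ppa1 (0.74), on few UMIs of the 2 Dbx genes.

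Other genes of the patterning system were described from 5 lists. Over all cells, none of the 40 list genes with 200 or more UMIs was 1.5-fold apart. In neural progenitor-like cells, 2 of 23 list genes with 50 or more UMIs were lower in KO by that much and 1 was higher, beside 5.15% and 2.71% of all 6500 genes, so these counts were near the background. By list, 1 of 8 dorsal progenitor factors over the UMI minimum was lower. This was Msx1, a target of BMP signals that was named after its values were seen, with 93 and 59 UMIs (log2 of -0.66, -1.16 to -0.18). Of the dorsal factors with most UMIs, Zic1 had a log2 of -0.14, Pax3 of 0.20, Zic5 of -0.06 and Olig3 of -0.52 (-0.93 to -0.12). The median of the 8 was -0.09.

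Of 4 ventral progenitor factors over the minimum, 1 was higher in KO, beside 2.71% of all 6500 genes. This was the proneural gene Neurog2, with 17 and 36 UMIs (log2 of 1.07, 0.21 to 2.00). Ptch1, the Sonic hedgehog receptor and a target of the pathway, had 671 and 638 UMIs (log2 of -0.08, -0.24 to 0.08), Foxa2 a log2 of 0.19 and Shh of -0.46 (-1.32 to 0.39). Of 6 other Sox genes, which include the gate marker Sox21, 1 was lower, beside 5.15% of all 6500 genes. This was Sox9, with 247 and 157 UMIs (log2 of -0.66, -0.96 to -0.37). Sox11 had a log2 of -0.10, Sox4 of 0.10 and Sox12 of 0.07. None of the 3 other Irx genes over the minimum was past the fold, with Irx5 at -0.08, Irx2 at -0.56 and Irx1 at -0.01. Irx4 had 0 UMIs in WT and 5 in KO. Of the neuron identity factors, Tubb3 had a log2 of -0.52 (-1.30 to 0.25) and was not past the fold. Below the minimum, Elavl3 had 28 and 19 UMIs and Isl1 16 and 25.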

How the data were processed

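Libraries were made with a 10x Chromium 3′ kit. The submitters' processing notes name Cell Ranger 1.3.1, Scanpy and mm10, while the methods name a human genome; the gene symbols are those of mouse. In the deposited tables the authors had filtered cells and genes, removed doublets with DoubletFinder, removed mitochondrial and ribosomal UMIs, scaled each cell to a common total and taken square roots, so the deposited values are other than counts. Squaring each value and dividing by the smallest nonzero square of its cell gave whole UMIs (within 0.01) for 100.0% of values, 20781384 in WT and 18936857 in KO. No doublet caller was run again. No count model was fitted, since each genotype had 1 library.

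CPM were given with exact Poisson intervals, shares with exact binomial (Clopper-Pearson) intervals and ratios with exact conditional intervals. Only the ratio intervals had their coverage checked on simulated data. A floor of 3 counts stood for 0. Shares were also computed after thinning cells to 1000 UMIs. The 9 genes, the markers and the lists were chosen with earlier results of these data known. All 9 genes were named, with the 4 genes of each list with most UMIs in neural progenitor-like cells and, for each of the 9, the 2 genes of most similar profile among genes with 200 or more UMIs that were neither gate markers nor among the 9. Some genes that this rule names are not reported here. Alternatives were the trimmed mean of log ratios, the median of ratios and the mean over cells as scalings, marker minimums of 2 and 4, a gate on thinned cells, leaving out the 5% of cells with most UMIs, a division by the larger number of UMIs, and other UMI minimums. Leaving out cells whose barcode was in both libraries, dividing cells without Ptch1 and counting intervals under the other scalings were chosen after seeing the data. Positions came from GENCODE on GRCm38 and promoter windows from RefSeq. Python 3.11.15, NumPy 2.4.6 and SciPy 1.17.1 were used.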

Additional observations from a re-analysis of the deposited data

Results flagged for a closer look

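The log2 of KO over WT of Sox2 pointed in opposite directions in 2 classes, each with an interval apart from 0: -0.34 (-0.65 to -0.03) in migrating NCC-like cells and 0.96 (0.12 to 1.82) in somite-like cells. The difference between the classes was not tested. The interval in migrating NCC-like cells took in 0 with 2 or 4 markers, with the gate on thinned cells, with the trimmed mean of log ratios and without the 5% of cells with most UMIs. That in somite-like cells took in 0 with 4 markers, where the log2 was 0.12, and with the gate on thinned cells, where it was 1.45.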

How the results depend on the processing

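With 1 library per genotype no replicate could be left out. No paired analysis was possible because each genotype had 1 library and the results come from no test. Of 155 recomputed values for the main results, 139 stayed close to the reported value and 0 reversed. Close meant within 1.5 times for counts and, for values with an interval, inside the interval of the reported value. A wide interval could thus hold a large shift or a change of sign, as that of Dbx2 in neural progenitor-like cells (-2.09 to 0.82). Reversed meant that a value whose interval was apart from 0 took the other sign. Of 565 others, 536 stayed close and 1 reversed. Values whose interval took in 0 could take the other sign without being counted as reversed, as Sox2, Irx3 and Olig2 do here. In neural progenitor-like cells gated after thinning to 1000 UMIs, the log2 of KO over WT was 0.11 for Sox2, -0.57 for Irx3, -2.55 for Dbx2 and -1.70 for Olig2, and that of ventral over dorsal for Nkx6-1 in WT was 1.06. With the division made without Ptch1 that Nkx6-1 value was 3.09. For Sox1 in KO, ventral over dorsal reversed to 0.042 with that gate. With 4 or more markers the log2 was -2.23 for Dbx2 and 1.45 for Olig2, and Olig2 in KO cells with Nkx6-1 was -0.51 percentage points from cells without. With no UMI minimum, 6 list genes were lower and 3 higher over all cells, and 12 lower and 8 higher in neural progenitor-like cells. With 5 times the minimum there were 1 and 0 in neural progenitor-like cells, and with the mean over cells 1 was lower. Over all genes, no UMI minimum gave 1843 lower and 1046 higher over all cells and 1957 and 1134 in neural progenitor-like cells. With 5 times the minimum there were 55 and 13, and 20 and 17, and the median of ratios gave 59 higher over all cells. The stricter gates hold fewer cells and UMIs. The causes of these shifts were not tested. Sox3 in neural progenitor-like cells stayed between -0.57 and -0.39 under each alternative tried, though its interval took in 0 with the gate on thinned cells, as did that of Sox1 with that gate and with 4 or more markers. Depth limits Dbx1, Dbx2 and Olig2 most, since each had under 30 UMIs in the neural progenitor-like cells of a library.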
